A study of Mus musculus with 36 samples.

Results

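Matricellular proteins and small proteoglycans were followed through 10 genes: Sparc, Postn, Tnc, Thbs1, Thbs4, Ccn2 and Fn1 on the side of the secreted adhesion-modulating proteins, and Dcn, Lum and Fmod on the side of the small leucine-rich proteoglycans. The genes were chosen by name with earlier results of these data known. Each symbol was matched to its Ensembl identifier among the 78239 genes of the count files. All 10 were found. The study sequenced poly(A) RNA from heart, kidney and liver tissue of male wild-type C57BL/6NCrl mice, an inbred strain. The mice were 8, 10 or 12 weeks old. No group carried a transgene or was treated, all mice arrived from the breeder at 6 weeks of age and ate standard chow, and each of the 9 groups of tissue and age held 4 libraries, 36 in all. The comparison of ages asks how the organs still change on the way from late adolescence to young adulthood. Nothing in the sources ties a library to a cage or says that the 3 organs of a replicate number came from the same mouse. Organs may share mice, and the main tests between organs treated all 36 libraries as independent.

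Matricellular proteins are secreted into the space between cells but serve less as scaffold than as modulators of how cells hold on to it, and many are abundant in development, are low in the resting adult organ and return after injury. Small leucine-rich proteoglycans sit on collagen fibrils and govern how thick and how regularly spaced the fibrils become. In heart and liver the main sources of most of these proteins are fibroblasts, stellate cells and vascular cells, while fibronectin of the blood plasma is made by hepatocytes. RNA of bulk tissue cannot tell fewer cells of a type from less RNA per cell, and this holds for every change given here.

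The sequences just before the start of transcription are shown for the 4 genes called higher in heart against week 8. Lum was called at week 10 and 12, Thbs1 and Fmod at week 10 alone, and Tnc at week 12 alone. Whether these genes move together was not tested. Each sequence is the 250 bases before the start of the canonical GENCODE vM39 transcript on GRCm39. It is written 5′ to 3′ on the strand of the gene, with capitals for the AP-1 letters TGANTCA. The TEAD letters GGAATG were searched as well, all motifs on both strands, in 9 of the 10 members.
Lum (chr10:97400740-97400989, plus strand): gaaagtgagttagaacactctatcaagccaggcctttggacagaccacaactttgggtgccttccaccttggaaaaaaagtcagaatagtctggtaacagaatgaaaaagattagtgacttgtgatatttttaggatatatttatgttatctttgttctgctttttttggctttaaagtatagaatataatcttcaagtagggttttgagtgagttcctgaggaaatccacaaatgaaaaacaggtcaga
Thbs1 (chr2:117941724-117941973, plus strand): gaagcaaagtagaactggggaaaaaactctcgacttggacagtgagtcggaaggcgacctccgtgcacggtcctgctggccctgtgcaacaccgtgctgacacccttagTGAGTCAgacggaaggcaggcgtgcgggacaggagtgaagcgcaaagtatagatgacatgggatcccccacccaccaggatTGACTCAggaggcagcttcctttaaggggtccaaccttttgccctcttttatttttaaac
Fmod (chr1:133964742-133964991, plus strand): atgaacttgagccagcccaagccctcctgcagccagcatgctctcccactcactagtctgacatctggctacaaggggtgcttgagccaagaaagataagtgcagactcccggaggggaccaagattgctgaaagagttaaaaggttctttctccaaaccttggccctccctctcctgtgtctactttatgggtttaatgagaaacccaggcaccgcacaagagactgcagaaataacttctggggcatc
Tnc (chr4:63965444-63965693, minus strand): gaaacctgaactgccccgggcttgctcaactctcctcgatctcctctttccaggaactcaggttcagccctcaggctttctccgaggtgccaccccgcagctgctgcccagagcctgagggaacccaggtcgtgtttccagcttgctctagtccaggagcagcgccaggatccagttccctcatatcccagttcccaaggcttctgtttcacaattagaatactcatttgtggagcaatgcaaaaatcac
Thbs1 held the AP-1 letters at 2 places, beginning at -141 and -60 from the start, and no other member searched held them. Of 21723 promoters of protein-coding genes of the same length, 6.19% did. The TEAD letters stood in Dcn and Thbs4, 2 of the 9 members against 12.1% of all promoters. The SMAD letters CAGAC stood in 7 of the 9 members and in 41.3% of all promoters, and in Thbs1 a match overlapped the more distant AP-1 letters. None of the 9 held the TATA letters TATAAA (11.9% of all promoters) or a CArG box, the site of the serum response factor (1.40%). The 4 genes called in heart at either age shared neither the TEAD nor the AP-1 letters in this window. Dcn (chr10:97315275-97358155) and Lum (chr10:97400990-97408577) lie on the same strand with 42834 bases between them, next to their relatives Kera and Epyc. Kera had no count in any of the 36 libraries and the mean level of Epyc stayed under 0.01 CPM in each tissue, so of the 4 neighbouring proteoglycan genes Dcn and Lum alone gave measurable RNA.

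The libraries held 21031599 to 33637390 read pairs counted on genes. Levels are given as CPM, the share of a library's counts on a gene in parts of 1e+06, scaled with TMM factors over all 36 libraries. The labelled organs carried their own markers: the cardiac myosin gene Myh6 averaged 24767 CPM in heart and at most 1.05 CPM in any other library, the renal phosphate transporter Slc34a1 averaged 3986 CPM in kidney, and albumin (Alb) averaged 92150 CPM in liver. Genes that mark other cells or tissue varied between libraries, and the source of their RNA was not tested. Alb had no count in any of the 4 8-week hearts but reached 16.0 CPM in the 10-week hearts and 2.78 CPM in the 12-week hearts. The sum of 6 mesothelial markers, genes of the epithelium that covers the organs, was 10.1 to 13.9 CPM in the 8-week hearts, 14.9 to 70.8 CPM in the 10-week hearts and at most 30.2 CPM in the 12-week hearts. Of 7 atrial markers, Bmp10 and Sln, named after their values were seen, stayed at or under 0.26 CPM in every heart. The summed list of all 7, carried by the other markers, was 146 to 149 CPM at 10 weeks against 129 to 191 CPM at 8 weeks. The paper names heart tissue without saying which part was taken, and which chambers the samples held was not tested. Among the kidneys, replicate 1 of the 8-week group was the lowest of its group in Sparc, Postn, Lum, Dcn, Thbs4, Fn1 and Ccn2.

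Fn1 (chr1:71624673-71692419), which encodes fibronectin, the adhesive glycoprotein of plasma and matrix, was far higher in liver than elsewhere. It stood at 1814 to 2978 CPM in the 12 livers, at 38.9 to 54.7 CPM in the hearts and at 11.8 to 32.5 CPM in the kidneys. The liver lay above both other organs in every library, by 5.59 ± 0.13 on the log2 scale against heart and by 6.62 ± 0.14 against kidney (edgeR's quasi-likelihood test, Benjamini-Hochberg adjusted p = 7.47e-29 and 3.69e-30). Counts per gene do not separate the splice forms of plasma and tissue fibronectin.

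Sparc (chr11:55285317-55314067), a collagen-binding glycoprotein, and Postn (chr3:54268501-54298471), which encodes periostin, a fibroblast product that aids collagen crosslinking, were highest in heart. Sparc ranged from 309 to 423 CPM in heart, from 71.9 to 132 CPM in kidney and from 42.3 to 84.1 CPM in liver. Every heart was above every kidney and liver, while the kidney and liver libraries overlapped although their means differed by 0.69 ± 0.08 on the log2 scale (adjusted p = 5.95e-10), a difference that was 1.49 without TMM factors. Postn ranged from 25.4 to 47.9 CPM in heart, from 8.81 to 22.7 CPM in liver and from 2.06 to 7.21 CPM in kidney, with no overlap between any of the organs.

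Tnc (chr4:63878014-63965443), the gene of tenascin-C, a protein of growing and wounded tissue, was low outside the kidney. It reached 5.07 to 23.0 CPM in kidney, 0.60 to 2.75 CPM in liver and 0.26 to 1.38 CPM in heart, where 7 to 37 counts per library lay behind it. The kidney libraries stood above all others, and heart and liver overlapped, with heart lower by 0.93 ± 0.26 on the log2 scale (adjusted p = 0.0015).

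Thbs1 (chr2:117941974-117957616) encodes thrombospondin-1, an inhibitor of vessel growth that can activate latent TGF-beta. It too was highest in kidney, at 45.1 to 72.1 CPM, against 3.18 to 10.9 CPM in heart and 0.34 to 14.4 CPM in liver. The liver range came from a wide scatter between animals: 10 livers lay between 0.34 and 2.49 CPM, while a 10-week liver had 8.83 CPM and a 12-week liver 14.4 CPM. Thbs4 (chr13:92888095-92931501), a thrombospondin of heart, muscle and tendon, was found at 1.62 to 3.02 CPM in heart and 0.13 to 0.74 CPM in kidney. In liver it had no count in 10 of 12 libraries, and replicates 3 and 4 of the 12-week group held 4 and 6 counts, so no fold against liver is given.

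Ccn2 (chr10:24471333-24474900) encodes the connective tissue growth factor, a product of mechanically loaded cells. It was the only member whose libraries overlapped between every pair of organs. It ranged from 32.5 to 82.2 CPM in heart, from 18.6 to 65.6 CPM in kidney and from 5.47 to 38.3 CPM in liver. Heart exceeded liver by 2.07 ± 0.21 and kidney exceeded liver by 1.49 ± 0.20 on the log2 scale (edgeR, adjusted p = 3.86e-11 and 4.41e-08). The difference of 0.57 ± 0.19 between heart and kidney (adjusted p = 0.0071) was 0.05 (adjusted p = 0.828) without TMM factors, so the order of these neighbours depends on the scaling. Dropping the TMM factors moved the median of all genes between heart and kidney from -0.15 to -0.67. Between kidney and liver it moved from 0.16 to 0.93. The differences of all 10 members moved the same way in both comparisons.

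Of the small proteoglycans, Dcn and Lum shared the order heart, liver, kidney and Fmod did not. Dcn (decorin, which binds collagen fibrils and TGF-beta) was at 380.1 to 590.1 CPM in heart, 100.1 to 220.4 CPM in liver and 15.3 to 47.0 CPM in kidney. Lum (lumican, best known from the transparent cornea) was at 34.5 to 64.5 CPM in heart, 6.68 to 13.9 CPM in liver and 0.47 to 3.55 CPM in kidney. No library of an organ overlapped another organ for either gene, and heart exceeded kidney by 3.91 ± 0.14 for Dcn and by 4.80 ± 0.13 for Lum on the log2 scale (adjusted p = 5.55e-24 and 6.93e-27). Fmod (chr1:133964992-133976015), which encodes fibromodulin, a lumican relative of tendon and cartilage, was highest in kidney at 7.12 to 12.3 CPM and stood at 1.10 to 4.94 CPM in liver. In heart it spread over 0.20 to 9.93 CPM, with a coefficient of variation of 110% over the 12 libraries, the largest of the members in that organ.

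Per kb of exon, Sparc was the highest member in heart with a mean of 86.4 CPM per kb and in kidney with 23.4 CPM per kb, and Fn1 in liver with 139 CPM per kb. Dcn followed in heart with 34.9 and Ccn2 in kidney with 13.3 CPM per kb. The exon length used is the union over all transcripts of a gene, 13033 bases for Dcn, and sets a gene with many transcripts too low.

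**Figure D1:**
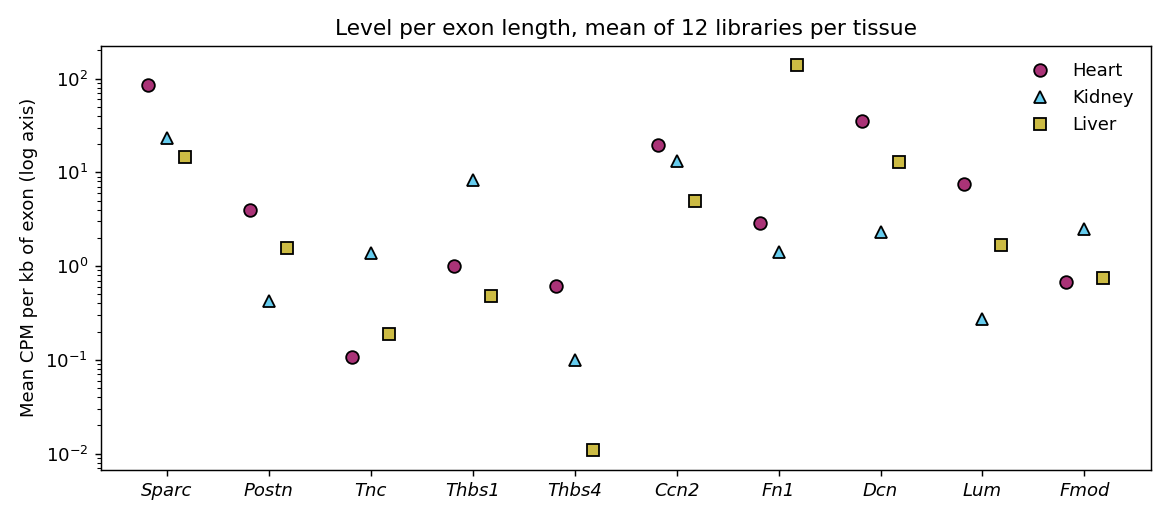
Mean level of each gene per kb of exon (CPM per kb, log axis) in heart, kidney and liver, each symbol the mean of 12 libraries. Fn1 reaches 139 CPM per kb in liver, while Sparc leads in heart with 86.4 and in kidney with 23.4 CPM per kb.

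In the model of all 36 libraries, 10 members differed between heart and kidney, 9 between heart and liver and 10 between kidney and liver, with Fmod between heart and liver (-0.57 ± 0.28, adjusted p = 0.059) the exception. That value passed in limma-voom (-0.82, adjusted p = 0.043) and under a replicate block (-0.62, adjusted p = 0.043). The calls of Thbs4 against liver rest on 10 counts in 2 of the 12 livers. The share of all genes past the same threshold was 86.1%, 84.2% and 83.1%, so a difference between organs was the rule for any gene here. The plot of levels by library shows these differences beside the shifts with age.

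**Figure D2:**
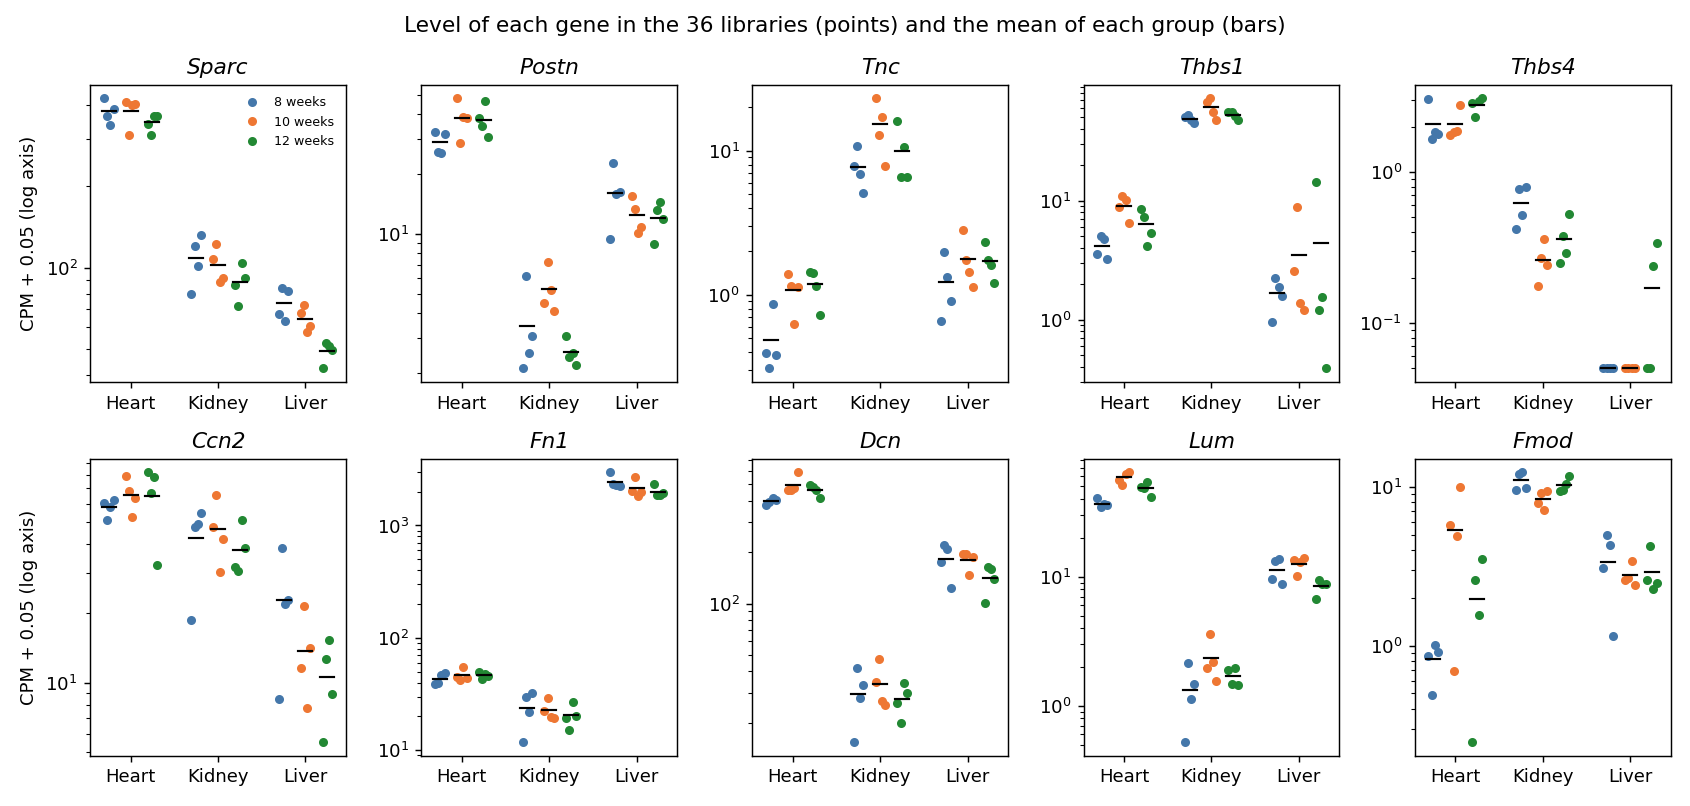
Level of each gene (CPM plus 0.05, log axis) in heart, kidney and liver at 8 weeks (blue), 10 weeks (orange) and 12 weeks (green), with each point a library and each bar the mean of 4 libraries. Organs are apart by far more than ages for most genes, such as Fn1 at 1814 to 2978 CPM in liver, while Fmod in heart spreads from 0.20 to 9.93 CPM.

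In the heart, Lum rose between week 8 and 10 and was still higher at week 12. Its levels were 40.5, 34.5, 36.3 and 35.7 CPM in the 4 8-week hearts, 56.3, 51.0, 63.0 and 64.5 CPM at 10 weeks, and 49.4, 48.8, 53.8 and 41.4 CPM at 12 weeks. Every 10-week heart and every 12-week heart was above all 8-week hearts. The log2 fold change was 0.68 ± 0.09 between week 8 and 10 (adjusted p = 0.0024), the eighth lowest p among 15137 genes, and 0.39 ± 0.09 between week 8 and 12 (adjusted p = 0.030). The change to week 10 passed with each of the 12 hearts left out in turn. The change to week 12 passed with 6 of them left out and was lost without replicate 2, 3 or 4 of the 8-week group (adjusted p = 0.079, 0.067 and 0.086) or replicate 1, 2 or 3 of the 12-week group (0.077, 0.069 and 0.092).

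Its neighbour Dcn was 380.1 to 418.0 CPM at 8 weeks, 464 to 590.1 CPM at 10 weeks and 419 to 495 CPM at 12 weeks, without overlap between the youngest hearts and either older group. The log2 fold changes of 0.32 ± 0.09 and 0.21 ± 0.09 did not pass the adjusted threshold (adjusted p = 0.087 and 0.148). The change to week 10 passed in DESeq2 (0.32, adjusted p = 0.020) and without a count filter (0.33, adjusted p = 0.022).

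Thbs1 rose in heart between week 8 and 10. The levels were 3.54, 5.03, 4.71 and 3.18 CPM at 8 weeks, 8.77, 10.9, 10.0 and 6.40 CPM at 10 weeks, and 8.51, 7.24, 4.10 and 5.33 CPM at 12 weeks. All 10-week hearts were above all 8-week hearts, and the 12-week hearts overlapped both. The log2 fold change to week 10 was 1.13 ± 0.22, a fold of 2.19 (adjusted p = 0.020), and to week 12 it was 0.60 ± 0.22 (adjusted p = 0.117). The first was lost without replicate 4 of the 8-week group (adjusted p = 0.073) or replicate 3 of the 10-week group (0.070).

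Fmod was also called between week 8 and 10, but not in every heart. It stood at 0.81, 0.44, 0.96 and 0.87 CPM at 8 weeks and at 5.74, 0.65, 4.85 and 9.93 CPM at 10 weeks, so that replicate 2 of the 10-week group lay within the 8-week range. At 12 weeks the levels were 0.20, 2.52, 1.52 and 3.46 CPM, with replicate 1 below all 8-week hearts. The log2 fold change to week 10 was 2.80 ± 0.63, a fold of 6.97 (adjusted p = 0.041), and to week 12 it was 1.36 ± 0.67 (adjusted p = 0.233). The call was lost in limma-voom (adjusted p = 0.224), without replicate 2, 3 or 4 of the 8-week group (0.134, 0.102 and 0.10), without replicate 1, 3 or 4 of the 10-week group (0.079, 0.085 and 0.140) and without replicate 3 of the 12-week group (0.062).

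The mesothelial markers moved with Fmod. Of the 6 markers, 5 rose between week 8 and 10 in heart: Msln by 2.99 ± 0.57, Upk3b by 3.61 ± 0.71, Upk1b by 3.58 ± 0.80, Lrrn4 by 3.71 ± 0.85 and Gpm6a by 1.80 ± 0.34 on the log2 scale (adjusted p = 0.019, 0.023, 0.041, 0.046 and 0.018), while Wt1, at 3.45 to 6.98 CPM in every heart, stood at -0.01 ± 0.19. In edgeR 1.06% of all genes passed between these ages. DESeq2 called 4 of the 6 mesothelial markers and limma-voom none. The 5 hearts with the highest marker sum, replicates 4, 1 and 3 of the 10-week group and replicates 4 and 2 of the 12-week group, were also the 5 with the highest Fmod, in the same order. In the 10-week heart with the lowest marker sum, replicate 2 at 14.9 CPM, Fmod was 0.65 CPM. Lum was 51.0 CPM and Thbs1 10.9 CPM there, both above every 8-week heart. Replicates 4, 1 and 3 of the 10-week group were also the hearts highest in Lum, at 64.5, 56.3 and 63.0 CPM. Their Thbs1 stood at 6.40, 8.77 and 10.0 CPM. The part of mesothelial tissue in the changes of Fmod, Lum and Thbs1 was not tested. Of 6 bile duct markers 4 were tested in heart, and Krt7 and Krt19, keratins of simple epithelia, rose by 3.25 ± 0.69 and 2.89 ± 0.68 (adjusted p = 0.031 and 0.048) from mean levels under 0.20 CPM at 8 weeks. Of the fibroblast markers, 2 of 10 rose, Pdgfra by 0.53 ± 0.08 and Dpt by 0.41 ± 0.09 (adjusted p = 0.0026 and 0.040), and the summed list was 1521 to 1785 CPM at 10 weeks against 1414 to 1603 CPM at 8 weeks. At 12 weeks, when Lum was still higher, the sum was 1259 to 1540 CPM, and 7 of the 10 markers had a negative log2 fold change against week 8 (median -0.13) while Pdgfra alone passed, higher by 0.45 ± 0.08 (adjusted p = 0.0055). The part of fibroblasts in the change of Lum was not tested.

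**Figure D3:**
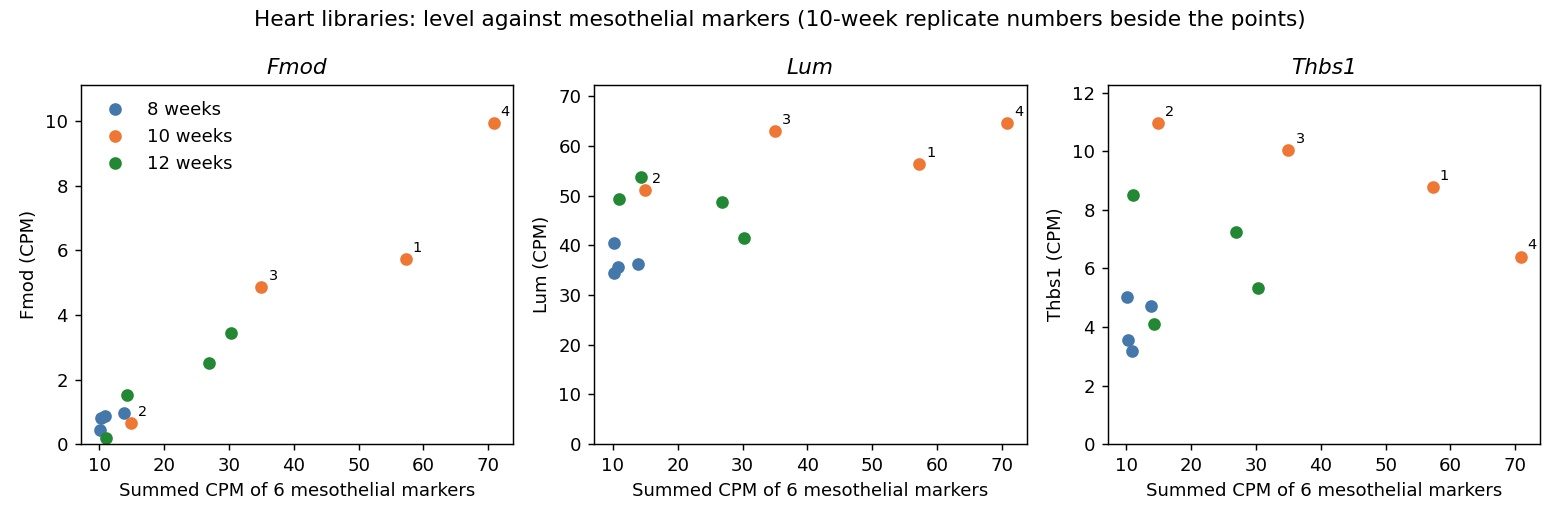
Level of Fmod, Lum and Thbs1 (CPM) in each of the 12 hearts against the summed level of 6 mesothelial markers (CPM), coloured by age, with the replicate number beside the 10-week points. Fmod climbs with the marker sum from 0.65 CPM in 10-week replicate 2 to 9.93 CPM in replicate 4. In replicate 2 Lum is 51.0 CPM and Thbs1 10.9 CPM, and Lum is highest in replicate 4 at 64.5 CPM.

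Tnc passed the test in heart between week 8 and 12 alone. It stood at 0.34, 0.26, 0.82 and 0.33 CPM at 8 weeks, 1.35, 1.09, 0.58 and 1.09 CPM at 10 weeks, and 1.38, 1.37, 1.10 and 0.68 CPM at 12 weeks. Replicate 3 of the 8-week group was high for its age, and both older groups overlapped the youngest through it. The log2 fold change was 1.39 ± 0.38 to week 12, a fold of 2.63 (adjusted p = 0.046), and 1.26 ± 0.39 to week 10 (adjusted p = 0.128). The call rests on 7 to 37 counts per library and passed with 4 of the 12 hearts left out in turn. It was lost under a replicate block (adjusted p = 0.061), which joins different mice of the 3 ages by number alone, and with the 2 ages alone (0.059). The call was also lost without replicate 1, 2 or 4 of the 8-week group (0.077, 0.122 and 0.121), replicate 1 or 4 of the 10-week group (0.050 and 0.059) or replicate 1, 2 or 3 of the 12-week group (0.11, 0.114 and 0.099). Tnc shares exon sequence with 8030451A03Rik, and since the libraries did not keep strand, pairs from the overlap can be assigned to neither gene. The same holds for Postn (with Gm31095), Thbs1 (Gm29233 and Gm13986), Fn1 (Apol7d) and Ccn2 (Gm15270).

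The other hearts' values were small. Postn went from 25.4 to 32.4 CPM at 8 weeks to 28.7 to 47.9 CPM at 10 weeks and 30.6 to 46.4 CPM at 12 weeks (0.41 ± 0.14 and 0.37 ± 0.14, adjusted p = 0.174 and 0.130). Sparc (-0.14 ± 0.10 to week 12), Fn1 (0.09 ± 0.09), Ccn2 (0.16 ± 0.20) and Thbs4 (0.43 ± 0.22) did not pass. Ccn2 was held down by replicate 4 of the 12-week group at 32.5 CPM, against 66.8 to 82.2 CPM in the other 12-week hearts; without it the change was 0.39 (adjusted p = 0.043).

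In counts, 3 of 10 members passed in heart between week 8 and 10, all higher, where 1.06% of all 15137 genes tested passed, and 2 of 10 between week 8 and 12, both higher, where 4.56% did. Between week 8 and 10 DESeq2 called 4, with Dcn the addition, and limma-voom 2, without Fmod. The groups did not overlap for 3 members (Lum, Dcn and Thbs1) at week 10, against 9.73% of all genes, and for 2 (Lum and Dcn) at week 12, against 12.7%. The median log2 fold change of the members was 0.37 at week 10 and 0.38 at week 12, while that of all genes was within 0.01 of 0. The members were chosen with earlier results of these data known, so the values of all genes beside them are no test. Between week 10 and 12 no member passed and 6 genes in all did (0.0396%). By unadjusted p under 0.05, 3 members differed there, Lum, Thbs1 and Fmod, each lower at 12 weeks by estimate, against 11.7% of all genes. DESeq2 and limma-voom called none, and a fit without a count filter called 2.

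**Figure D4:**
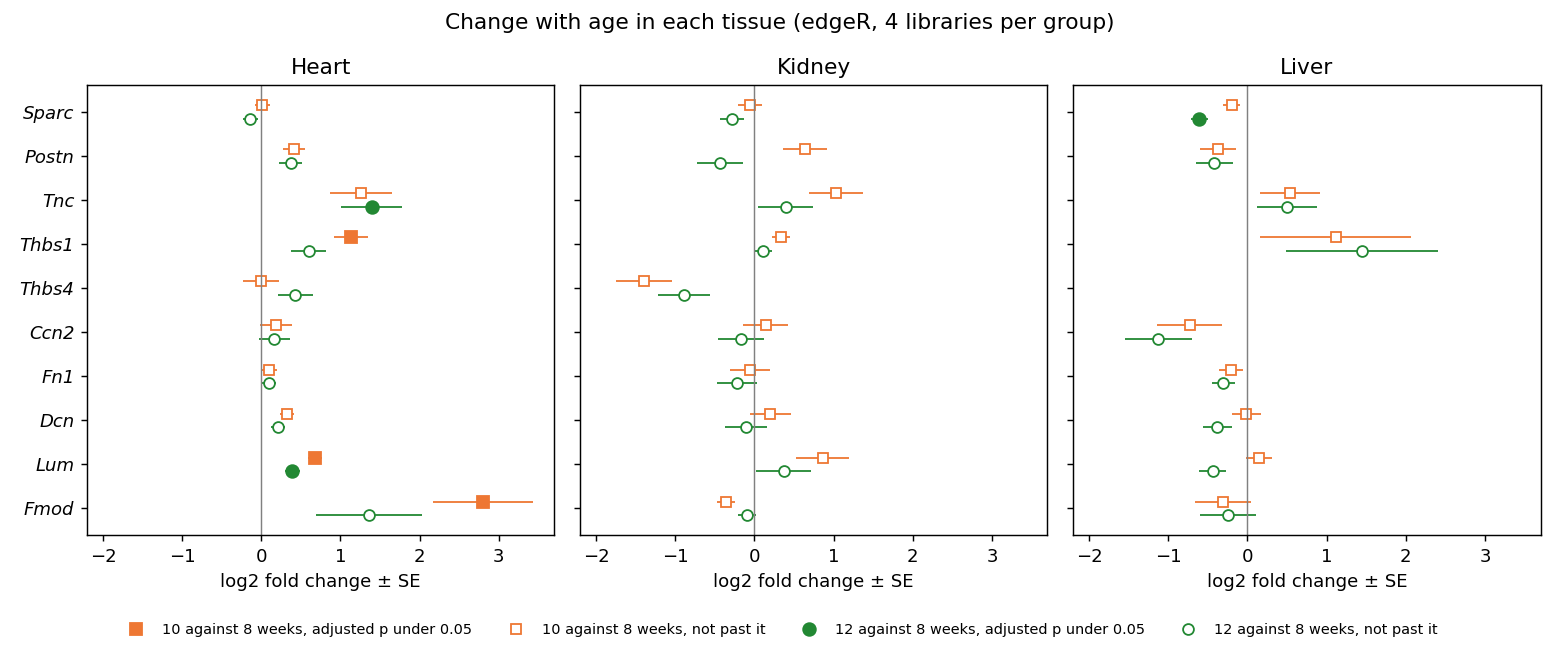
log2 fold change (± SE) of each gene in heart, kidney and liver for week 10 against 8 (orange squares) and week 12 against 8 (green circles), with filled symbols for an adjusted p under 0.05. In heart Fmod (2.80), Thbs1 (1.13) and Lum (0.68) are filled at week 10 and Tnc (1.39) and Lum (0.39) at week 12, in liver Sparc (-0.61) at week 12, and none in kidney.

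In the kidney no member passed in any comparison of ages, while 0.929% of 17649 genes passed between week 8 and 10, 0.0567% between week 8 and 12 and 0.482% between week 10 and 12. At an unadjusted p under 0.05 the counts were 6, 1 and 2 of the 10 members, against 16.5%, 11.7% and 16.4% of all genes. DESeq2 called 1 member between week 8 and 10 (Thbs4) and 1 between week 10 and 12 (Postn), and limma-voom called none. The lowest p-values between week 8 and 10 were those of Thbs4, at 0.37, 0.72, 0.47 and 0.74 CPM at 8 weeks and 0.13, 0.22, 0.31 and 0.19 CPM at 10 weeks. All 10-week kidneys were below all 8-week kidneys, and the log2 fold change was -1.40 ± 0.35 (adjusted p = 0.073), on 4 to 31 counts per library. Fmod did not overlap either, with 9.56 to 12.3 CPM at 8 weeks and 7.12 to 9.40 CPM at 10 weeks (-0.36 ± 0.11, adjusted p = 0.128). These 2 members without overlap compare with 8.98% of all genes. Tnc stood at 5.07 to 10.7 CPM at 8 weeks and 7.76 to 23.0 CPM at 10 weeks (1.03 ± 0.34, adjusted p = 0.149).

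Postn in kidney was 4.43, 7.21, 5.18 and 4.06 CPM at 10 weeks and 3.02, 2.37, 2.48 and 2.14 CPM at 12 weeks. The 12-week kidneys were lower by 1.08 ± 0.29 in the edgeR fit, at an adjusted p of 0.095. This p was 0.036 without replicate 2 of the 8-week group, a group outside the comparison, while the log2 fold change stayed at -1.08. That library was 6.09 CPM where the rest of its group was 2.06 to 3.03 CPM. Between week 8 and 10, Thbs1 and Postn passed when a library of the groups compared was left out. Thbs1 passed without replicate 4 of the 10-week group (0.44, adjusted p = 0.031) and Postn without replicate 2 of the 8-week group (1.06, adjusted p = 0.050).

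In the liver Sparc fell between week 8 and 12. Its levels were 67.2, 84.1, 63.2 and 81.5 CPM at 8 weeks, 67.7, 72.4, 57.7 and 60.9 CPM at 10 weeks, and 42.3, 52.7, 51.1 and 49.4 CPM at 12 weeks. The 12-week livers were below every younger liver. The log2 fold change was -0.61 ± 0.11, a fold of 0.657 (adjusted p = 0.044), where 0.239% of 14672 genes passed, and -0.41 ± 0.11 between week 10 and 12 (adjusted p = 0.127). The call lay close to the threshold: with replicate number as a replicate block the adjusted p was 0.056, with the 2 ages alone 0.078, and it held with 1 of the 12 livers left out (replicate 2 of the 10-week group) and was lost with any of the other 11, at 0.053 to 0.149, while the log2 fold change kept to -0.67 to -0.54.

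Vascular markers were lower in the same livers. The sum of 10 endothelial markers was 215 to 343 CPM at 8 weeks, 269 to 315 CPM at 10 weeks and 137 to 177 CPM at 12 weeks. All 10 endothelial markers had a negative log2 fold change between week 8 and 12, with a median of -0.62. None passed the adjusted threshold in edgeR, the nearest being Lyve1 of the sinusoids (-1.56 ± 0.30, adjusted p = 0.052). At an unadjusted p under 0.05 there were 8 of the 10, against 15.1% of all genes. DESeq2 called 3 of these markers and limma-voom none. The sum of 10 mural and stellate cell markers was 138 to 239 CPM at 8 weeks and 112.7 to 169 CPM at 12 weeks, and that of 10 fibroblast markers 41.8 to 60.5 CPM and 32.6 to 47.1 CPM. Macrophage markers summed to 186 to 408 CPM at 8 weeks, 417 to 624 CPM at 10 weeks and 220.2 to 279 CPM at 12 weeks. The part of these cells in the fall of Sparc was not tested.

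**Figure D5:**
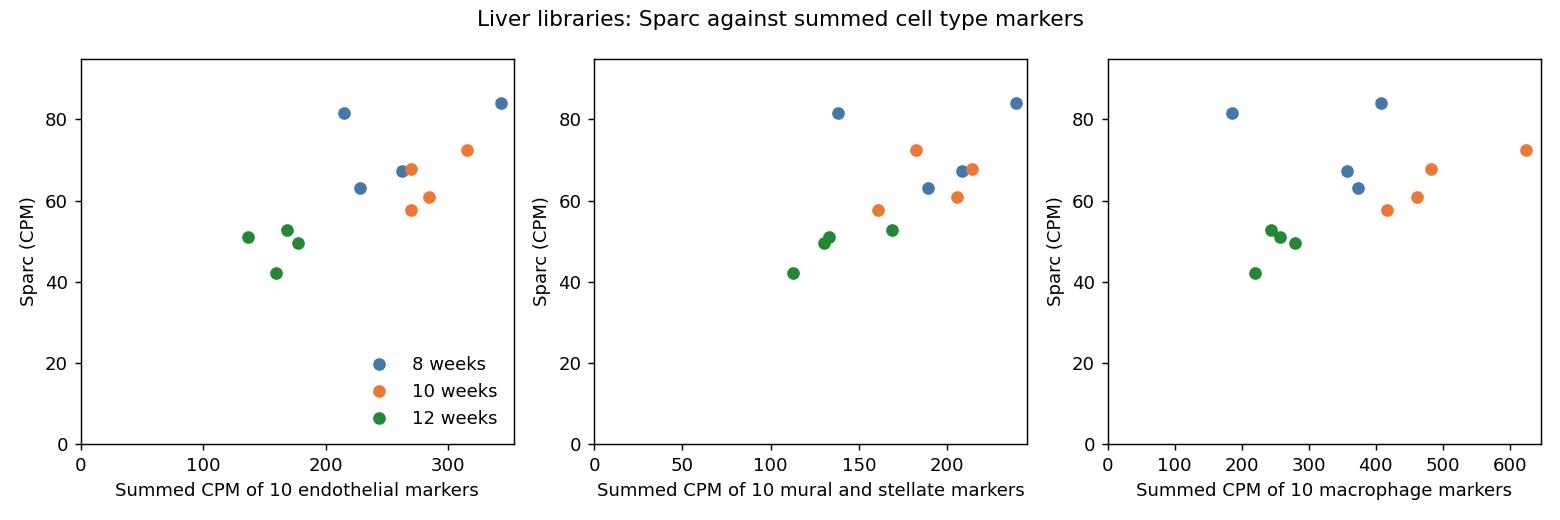
Sparc (CPM) in each of the 12 livers against the summed level (CPM) of 10 endothelial, 10 mural and stellate cell and 10 macrophage markers, coloured by age. The 12-week livers lie lowest in Sparc, at 42.3 to 52.7 CPM, and lowest in endothelial markers, at 137 to 177 CPM.

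The proteoglycans of the liver lay lower at 12 weeks by estimate without passing. Lum was 8.68 to 13.6 CPM at 8 weeks, 10.1 to 13.9 CPM at 10 weeks and 6.68 to 9.37 CPM at 12 weeks. Its log2 fold change between week 10 and 12 was -0.59 ± 0.17 (adjusted p = 0.141). Dcn was 124 to 220.4 CPM at 8 weeks and 100.1 to 164 CPM at 12 weeks (-0.38 ± 0.18, adjusted p = 0.343). Ccn2 spread from 8.48 to 38.3 CPM at 8 weeks and from 5.47 to 15.3 CPM at 12 weeks (-1.13 ± 0.42, adjusted p = 0.245), and Fn1 from 2267 to 2978 CPM and from 1852 to 2352 CPM (-0.30 ± 0.15, adjusted p = 0.355).

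Of the 9 members tested in liver, 1 passed between week 8 and 12, 7 had a negative log2 fold change and the median was -0.38. Sparc was the only member whose 4 and 4 libraries did not overlap, against 7.95% of all genes. No member passed between week 8 and 10 (0.0204% of all genes) or between week 10 and 12 (0.0545%). At an unadjusted p under 0.05 there were 0 and 2 of the 9 members, against 14.3% and 14.1% of all genes. DESeq2 called 0 and 2, the latter Lum and Sparc, and limma-voom called none.

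Whether a change with age differed between organs was tested by an interaction in the model of all 36 libraries. Fmod alone passed, for week 10 against 8: its change in heart exceeded that in kidney by 3.19 ± 0.65 (adjusted p = 0.026, with 0.198% of 19716 genes past the threshold) and that in liver by 3.12 ± 0.69 (adjusted p = 0.020, 1.09% of genes). The mesothelial markers of the 10-week hearts given above stand beside both values, and their part was not tested. In limma-voom they were 2.77 and 2.55 and did not pass (adjusted p = 0.170 and 0.203). Without replicate 4 of the 10-week hearts they were 2.702 and 2.63 (adjusted p = 0.106 and 0.061). The difference to kidney was also lost without replicate 1, 2 or 4 of the 8-week hearts (0.051, 0.093 and 0.068), replicate 2 or 3 of the 8-week kidneys (0.052 and 0.060) or replicate 1 or 3 of the 10-week kidneys (0.059 and 0.060), and under a replicate block (3.04, adjusted p = 0.052). The difference to liver was lost without replicate 2 of the 8-week livers (0.053).

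No member's change from week 8 to 10 differed between kidney and liver (0.0558% of genes), and none from week 8 to 12 between heart and kidney (0.112%), heart and liver (4.16%) or kidney and liver (0.304%). At an unadjusted p under 0.05 the members were Postn and Lum in the first, Fmod, Postn and Thbs4 in the second, Fmod, Sparc, Postn, Lum, Thbs4 and Ccn2 in the third and Lum and Thbs4 in the last, where 9.44%, 11.1%, 18.4% and 11.2% of all genes were under it. By the adjusted p, limma-voom called none but Lum between heart and liver. The lowest p was that of Thbs4 between kidney and liver (unadjusted p = 0.00083, adjusted p = 0.091 in edgeR), which rests on the 10 counts of 2 12-week livers, so no size is given. Lum between heart and liver, higher with age in heart and lower by estimate in liver, had a difference of 0.83 and an adjusted p of 0.080 that reached 0.040 in limma-voom and 0.045 without replicate 1 of the 8-week kidneys. The rise of Lum and Thbs1 in heart was thus not shown to be particular to the heart. The 3 comparisons of ages within an organ share their groups, as do the interactions.

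The wider matricellular and proteoglycan families had no gene past the threshold in edgeR in any of the 9 comparisons of ages. Of 24 other matricellular genes, such as Sparcl1 (330.5 CPM in heart), Spp1 (osteopontin, 472 CPM in kidney) and Vtn (vitronectin, 3017 CPM in liver), 20 were tested in heart and kidney and 17 in liver. Their median log2 fold change between week 8 and 10 in heart was 0.06. That of the 10 members, chosen with earlier results known, was 0.37. In a comparison, 2 to 4 of the other matricellular genes had an unadjusted p under 0.05, against 11.7% to 23.4% of all genes. Among them limma-voom called none, and DESeq2 called 3 over the 9 comparisons. Of 13 other small leucine-rich proteoglycans, among them Bgn (biglycan, 165 CPM in heart) and Ogn (osteoglycin, 142 CPM in heart), 9 were tested in heart with a median of -0.01. At most 2 had an unadjusted p under 0.05 in a comparison, beside the same shares of all genes. Among these proteoglycans limma-voom called none, and DESeq2 called 2 over the 9 comparisons.

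The fibrillar collagens and their crosslinking enzymes, the partners of the proteoglycans in the fibril, had calls in heart between week 8 and 10. Of 14 genes, 12 were tested, 3 passed and all 3 were higher: Col3a1, the chain of type III collagen, by 0.72 ± 0.17 (132 to 218 CPM in the means), Loxl1, a crosslinking oxidase, by 0.70 ± 0.15, and Col5a2, which helps to set fibril width, by 0.41 ± 0.09 (adjusted p = 0.0498, 0.032 and 0.041). In edgeR 1.06% of all genes passed there. DESeq2 called 4 and limma-voom 1. The list's median was 0.30. Between week 8 and 12 none of them passed in heart with any of these tools. By edgeR 2 had an unadjusted p under 0.05, against 23.4% of all genes.

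Of 20 cell-surface receptors listed for members or for collagen, 4 passed in heart between week 8 and 12, where 4.56% of all genes did. Itga9, an integrin subunit that binds tenascin-C, was higher by 0.64 ± 0.10 (adjusted p = 0.0045). Itga5, the fibronectin receptor subunit, Itgb5, a partner in vitronectin binding, and Ddr1, a collagen receptor, were lower, with log2 fold changes of -0.27 ± 0.07, -0.32 ± 0.07 and -0.46 ± 0.09 (adjusted p = 0.045, 0.027 and 0.014). The receptors had no call in kidney or liver in edgeR or limma-voom, where DESeq2 made 5 over the 6 comparisons. There 1 to 6 had an unadjusted p under 0.05, against 11.7% to 16.5% of all genes. Of 15 genes for TGF-beta ligands, carriers and receptors none passed in any comparison in edgeR or limma-voom. DESeq2 made 6 calls over the 9 comparisons, 3 of them in heart between week 8 and 12. At most 6 had an unadjusted p under 0.05, in heart between week 8 and 12, where 23.4% of all genes did. Of 15 targets of YAP and the serum response factor, 14 were tested in kidney. Among these Egr1, an immediate-early gene, rose between week 8 and 10 by 2.06 ± 0.44 (adjusted p = 0.044), where 0.929% of all genes passed. In this list DESeq2 called 1 gene there and limma-voom none.

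The genes with the most similar profile to a member were taken over the 12 libraries of the organ where the member was highest, by Pearson's r of log2 CPM, as a description among 12581 to 13554 genes. Such values are high by selection, and libraries share depth and sample quality. For Lum in heart they were Galnt1 (r = 0.96), Pcdh9 (0.92) and Acsl5 (0.92), with Dcn the closest member (0.84). For Dcn they were Enpp2 (0.93), Mrpl9 (0.91) and Wdr70 (0.90). Postn in heart was closest to Fstl1 (0.96), another secreted glycoprotein, Cisd2 (0.94) and Rin2 (0.92), and Tnc in kidney to Psca (0.95), Col18a1 (0.93) and Atp10b (0.93). For Sparc in heart they were Elovl5 (0.91), Celsr3 (0.87) and Ckb (0.87), for Thbs1 in kidney Asns (0.90), Mga (0.89) and Anapc11 (0.87), and for Fmod in kidney Tfb2m (0.94), Mertk (0.93) and Carhsp1 (0.92). Thbs4 in heart was closest to Psme3ip1 (0.92), Rps27 (0.91) and Alg5 (0.91), and Ccn2 in heart to Phf10 (0.92), Arl5a (0.90) and Mcl1 (0.89). In no profile compared here was another member among the 3 closest genes.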

How the data were processed

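RNA was sequenced as poly(A) libraries of read pairs. The authors trimmed the pairs with cutadapt 4.2, mapped them to GRCm39 (Ensembl v113 genes) with STAR 2.7.11b, and deposited unnormalized gene counts for each library. Between 49.8% and 50.2% of the stranded counts fell on the first strand, so the counts made without regard to strand were used. Pairs that overlapped 2 genes went uncounted. Symbols, positions and exon lengths came from GENCODE vM39.

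As in the study, a gene was tested in a tissue when an age group had at least 2 libraries above 0 and a mean count of at least 10. TMM scaling and edgeR's quasi-likelihood test (edgeR 4.0.16, R 4.3.3) with 1 mean per age were used, with calls at a Benjamini-Hochberg adjusted p under 0.05. Differences between tissues and interactions came from a model of 9 group means with no term for the mouse. Organs that may share mice were thus treated as independent, except under the replicate block, which pairs them by age and number. In the fits of a single organ the block joins libraries of different ages by number, although these came from different mice. The scripts were tested on simulated data. Alternatives were limma-voom (limma 3.58.1), DESeq2 1.42.0, RLE factors, no count filter, filterByExpr, a fit of 2 ages, a replicate block and each library left out in turn. Scaling by library size alone was added after the data had been seen. P-values set a difference against the spread between libraries within groups. That spread was estimated for each gene over all groups of a fit and moderated across genes. A test of 2 ages thus also depends on the libraries of the third age. The counts of all 54 pairs within groups differed by more than sampling noise.

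The members, marker and pathway lists were chosen with earlier results of these data known. All 10 members are named. Genes of other lists are named where they passed the adjusted threshold, at most 5 per list and comparison by size of change, and further list genes named as examples or for their levels were chosen after their values were seen. For each member the 3 genes of highest correlation were taken among genes with a mean of at least 1 CPM. Some items that these rules would name are not reported here. Plots on a log axis add 0.05 CPM.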

Additional observations from a re-analysis of the deposited data

Results flagged for a closer look

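The change of Fmod between week 8 and 10 differed between heart and kidney by 3.19 and between heart and liver by 3.12 on the log2 scale, by the interaction test of 60 such values over members and comparisons. The 10-week hearts high in Fmod were those high in mesothelial markers.

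Within groups, 10 of the 90 sets of 4 libraries held a value whose distance to the next exceeded Dixon's 95% limit, where chance alone flags about 1 set in 20. In heart these were Tnc at 0.82 CPM in replicate 3 of the 8-week group (next 0.34 CPM), Sparc at 311 CPM in replicate 2 of the 10-week group (next 399.9 CPM), Dcn at 590.1 CPM in replicate 4 of the 10-week group (next 475 CPM), Fn1 at 54.7 CPM in replicate 3 of the 10-week group (next 44.5 CPM), and Thbs4 at 2.99 CPM in replicate 1 of the 8-week group (next 1.78 CPM) and at 2.74 CPM in replicate 4 of the 10-week group (next 1.81 CPM). In liver they were Thbs1 at 14.4 CPM in replicate 1 of the 12-week group (next 1.51 CPM), Dcn at 146 CPM in replicate 3 of the 10-week group (next 188 CPM), and Fn1 in replicate 1 of both the 8-week group, at 2978 CPM (next 2319 CPM), and the 12-week group, at 2352 CPM (next 1932 CPM).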

How the results depend on the processing

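The count of members past the threshold depended most on the filter. Without a filter on low counts it was 5 for heart between week 8 and 12 (2 in the main test). It was 6 between week 8 and 10 (3) and 2 between week 10 and 12 (0). For kidney it was 6 and 2 between week 8 and 10 and between week 10 and 12 (0 and 0). For liver between week 8 and 12 it was 2 (1). The share of all genes called without the filter is not given, so these counts show nothing particular to the members. Without the filter p could move far more than size. Fmod in heart between week 10 and 12 had a log2 fold change of -1.46 without it and -1.45 with it. Its adjusted p in edgeR was 1.91e-10 without it and 0.316 with it. DESeq2 gave 4 and limma-voom 2 for heart between week 8 and 10. DESeq2 gave 1 for heart between week 8 and 12, where Tnc received no adjusted p, 1 and 1 for kidney between week 8 and 10 and between week 10 and 12, and 2 for liver between week 10 and 12. A fit of the 2 ages gave 1 for heart and 0 for liver between week 8 and 12. Under a replicate block, which within an organ joins different mice by number alone, these were 1 and 0. With the block by age and number, the interaction of week 10 against 8 between heart and kidney had 0 in place of 1. In limma-voom both interactions of week 10 against 8 with heart had 0, and that of week 12 against 8 between heart and liver had 1. With each library left out in turn, the counts ran from 0 to 3 for heart between week 8 and 12, from 1 to 4 between week 8 and 10, from 0 to 1 for kidney between week 8 and 10 and between week 10 and 12, from 0 to 1 for liver between week 8 and 12, and from 0 to 1 for the interactions of heart with kidney and with liver at week 10 and with liver at week 12. The cause was not tested. Of 5245 values of single members under alternatives, 5158 kept their side of the threshold, 53 lost it and 34 gained it, and no called value changed direction. A change of sign was seen for 38 of 177 values, all with an unadjusted p of 0.097 or more.

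Without TMM factors the split of all genes called higher and lower was 5183 and 12170 between heart and kidney (7694 and 9282 with them) and 14248 and 3344 between kidney and liver (9074 and 7303). Replicate numbers did not pair the libraries across ages: correlations of same-numbered deviations had medians of -0.0028 in heart, -0.0027 in kidney and 0.025 in liver. Across organs at the same age and number, 7 of 12 exceeded 0.1 for heart and kidney, 5 of 12 for heart and liver and 11 of 12 for kidney and liver. With 4 libraries per group, low counts limit Tnc in heart and Thbs4 in kidney and liver most.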
